A study of Mus musculus with 3 samples.

Results

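The comparison described here sets mouse embryonic stem cells that carry a Pcgf6 knockout and an introduced Flag-tagged Pcgf6 against knockout cells without it, and uses 2 of the 3 arrays of the series. The members were taken from the genotype labels: Pcgf6KO, in which Pcgf6 was edited with Cas9, and Pcgf6KO+ Pcgf6_flag, the edited cells after infection with a lentivirus. The third array, of wildtype cells, is given beside them as a reference level. All 3 cultures were male and were grown with leukaemia inhibitory factor and 15% fetal calf serum on mouse embryonic fibroblasts that mitomycin-C had inactivated, so each RNA sample can hold fibroblast transcripts. The promoter of the lentivirus, the number of clones behind each line and the time after infection are not given in the sources used.

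PCGF6 is a RING finger protein that defines PRC1.6, a variant of Polycomb repressive complex 1. It works with the ubiquitin ligases RING1 and RNF2, which modify histone H2A, and with the DNA-binding partners MGA and MAX, which bind E-box letters, and E2F6 and its dimerisation partner. In embryonic stem cells the complex is known for keeping genes of the germ line and of meiosis silent. The question that these 2 arrays address is which transcripts stand at another level once Flag-tagged Pcgf6 has been put back into knockout cells.

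Cy3-labelled RNA was hybridised to 1-colour Agilent mouse arrays, 1 array per group. No difference therefore has a replicate check and no p-value is given. The scaled level of a gene is log2 of the processed signal of its brightest probe relative to the array's 75th percentile, and a difference is the Flag-labelled array minus Pcgf6KO in log2 units. A difference of 1 is 2-fold. A gene was measured on an array where its probe was well above background. The Pcgf6KO array shared slide 1 with wildtype and the array labelled Pcgf6KO+ Pcgf6_flag lay alone on slide 2, so slide and group cannot be told apart. Fewer probes were measured on the Flag-labelled array: 60.7% of its probes were well above background against 65.3% and 66.0% on the others, and the SD of its negative controls was 16.9 signal units against 8.80 and 9.09. The 8 E1A spike-in controls measured on all arrays were 0.23 to 1.24 higher on the Flag-labelled array than on Pcgf6KO (median 0.81, SD 0.38 over the 8), whereas between Pcgf6KO and wildtype they differed by -0.52 to -0.21. Control RNA thus differed by an unequal amount from probe to probe, and 4 of the 8 passed 2-fold. The part of these array differences in the results was not tested.

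The cell type label was checked against marker genes. All 8 stem cell markers, among them Pou5f1, Nanog and Sox2, were measured on every array, with a summed signal of 109 times the 75th percentile on Pcgf6KO and 122 on the Flag-labelled array. A source field of the labels also names muscle. Of 6 skeletal muscle markers, Myod1, Acta1, Mylpf and Myh3 were measured on all 3 arrays and Myog and Ckm on none, and the summed signal of the list was 6.24 and 5.30 on the same 2 arrays.

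Pcgf6 itself was not higher on the array labelled as carrying it. The 1 probe for it had a scaled level of 0.84 in Pcgf6KO and 0.43 on the Flag-labelled array, a difference of -0.42, beside 1.87 in wildtype. No source used here says whether the probe sits inside the edited stretch or the lentiviral insert, and the level therefore checks neither label. Every direction reported here rests on that label, and the array is named by it throughout.

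Most subunits of PRC1.6 differed by less than 2-fold between the 2 arrays. All 16 on the list, Pcgf6 included, were measured, 0 were at least 2-fold higher and 1 was at least 2-fold lower, beside 5.5% higher and 8.34% lower among all genes. Of the 16, 13 stood at or above the median level of genes measured on both arrays, and 0 of these passed 2-fold. Among all genes at that level 1.21% were lower and 0.91% higher, so this is near the background. The list median was 0.04, and it was below 0 under quantile normalization and median scaling. Yaf2, a homologue of the RING1-binding protein RYBP, stood at 0.11 in wildtype, 0.80 in Pcgf6KO and -0.36 on the Flag-labelled array, a difference of -1.16. Its second probe gave -1.12. E2f6, the DNA-binding repressor of the complex, stood at 2.32 in Pcgf6KO and 1.54 on the Flag-labelled array. For the deacetylase gene Hdac2 the levels were 1.29 and 0.61. The largest positive difference belonged to Ring1 with 0.48. The ligase gene Rnf2 differed by -0.21, Rybp by -0.01, Mga by 0.05 and Max by 0.20. The MBT-domain gene L3mbtl2 differed by 0.35, Wdr5 by 0.29 and the histone H3K9 methyltransferase genes Ehmt1 and Ehmt2 by 0.35 and 0.20.

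Across the array, 14239 named genes were measured on both arrays, 1307 on Pcgf6KO only and 213 on the Flag-labelled array only. Of those measured on both, 1188 (8.34%) were at least 2-fold lower on the Flag-labelled array and 783 (5.5%) at least 2-fold higher. The median of all these genes was 0.03 and the middle 90% of them spanned -1.38 to 1.05. Larger differences leaned further to the lower side: 319 genes were at least 4-fold lower against 92 higher, and 53 at least 8-fold lower against 6 higher. A gene seen on 1 array has only a bound, for which the dim side is set to its own signal or, if that is higher, to the faintest signal that the array still measured. Of the 1520 such genes, 390 (25.7%) were at least 2-fold lower as a bound and 203 (13.4%) at least 2-fold higher. A lower bound can come only from the 1307 genes and a higher bound only from the 213. The faintest measured signal was 53.4 on Pcgf6KO and 103 on the Flag-labelled array, which favours large bounds on the higher side. These 2 shares therefore do not compare the directions.

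Brightness set how often the 2-fold line was passed. Genes were divided into 10 deciles of mean level. In decile 1, the dimmest, 21.3% were higher and 12.0% lower. In decile 2 the balance was the other way, with 11.3% higher and 24.9% lower, and both shares then declined with each decile. In decile 9, 0.21% were higher and 0.14% lower, and in decile 10 there were 0 of either. Deciles 1 to 5 held 92.3% of all calls. Among the 7120 genes at or above the median level, 86 (1.21%) were lower and 65 (0.91%) higher. The bars by decile of mean level show the same shares.

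**Figure D1:**
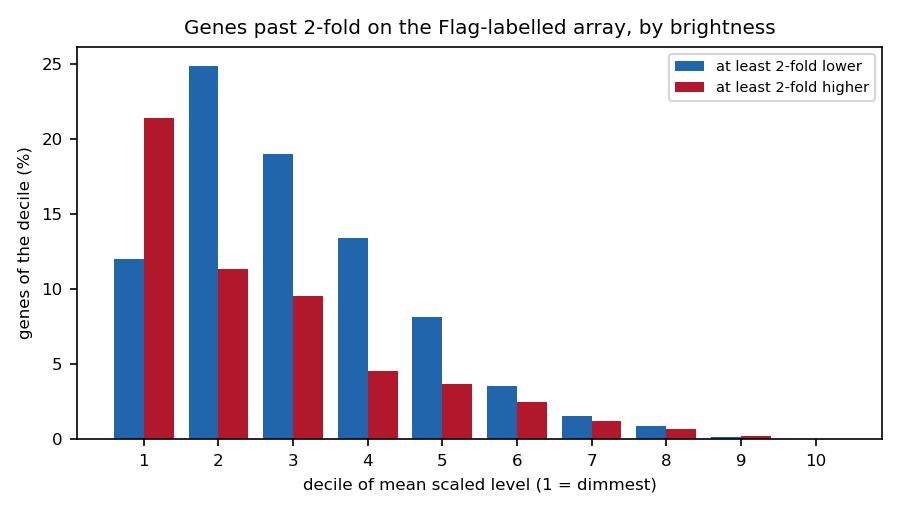
Percentage of genes at least 2-fold lower (blue) or higher (red) on the Flag-labelled array than in Pcgf6KO, in 10 bins of mean scaled level, bin 1 being the dimmest. Higher calls lead in bin 1 (21.3% against 12.0%), lower calls lead from bin 2 (24.9% against 11.3%) to bin 8, and bin 10 holds none.

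**Figure D2:**
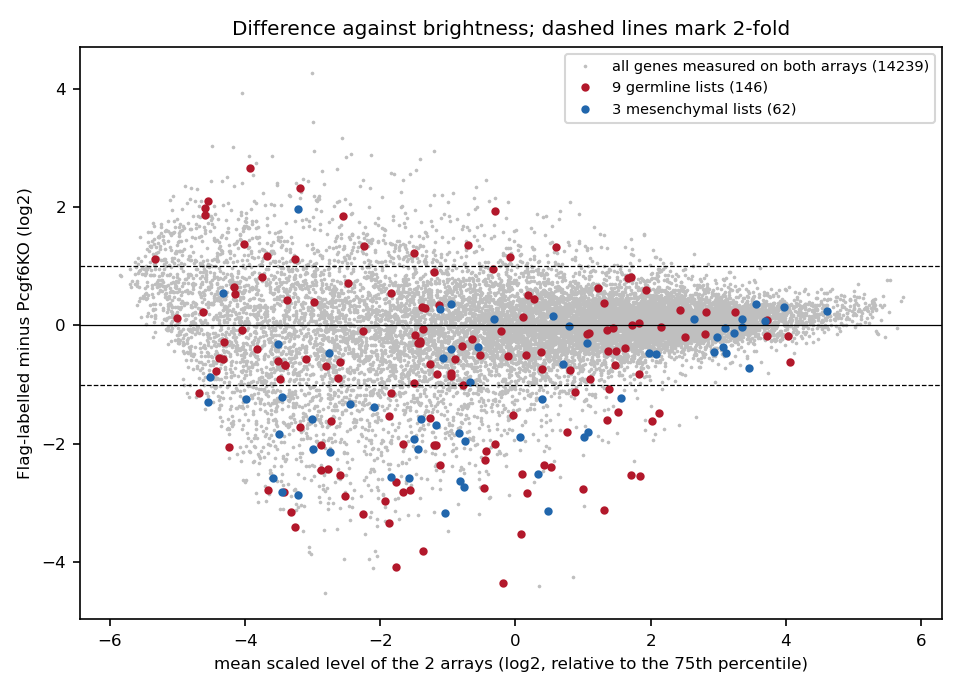
Difference between the Flag-labelled array and Pcgf6KO (log2, vertical axis) against the mean scaled level of both arrays (log2, horizontal axis) for 14239 genes, with members of the 9 germline lists in red and of the 3 mesenchymal lists in blue. The cloud narrows towards bright genes, and red points reach furthest below the dashed 2-fold line among genes of middle level.

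Bright genes with the lowest differences mixed germline genes with genes of signalling and of the cell surface. Anxa3, which encodes a calcium-dependent membrane-binding annexin, stood at 0.49 in wildtype, 2.05 in Pcgf6KO and -1.08 on the Flag-labelled array, a difference of -3.13. Penk, the enkephalin precursor gene, stood at 0.77, 2.54 and -0.51 in the same order. Both were highest in Pcgf6KO and lay lower on the Flag-labelled array than in wildtype. Sohlh2, a germ cell transcription factor gene, went from 1.73 in Pcgf6KO to -0.67, close to its wildtype level of -0.72. The nucleosome-binding gene Hmgn3 had levels of 1.13, 2.90 and 0.60, and the ubiquitin ligase gene Rnf130 had 0.57, 2.36 and 0.38. For these 3 genes the Flag-labelled array and wildtype both lay well below Pcgf6KO.

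Some genes of the same set had wildtype close to Pcgf6KO. The ephrin gene Efna5 stood at 1.37 in wildtype, 1.72 in Pcgf6KO and -0.58 on the Flag-labelled array, and Enpp2, which encodes the lysophospholipase D autotaxin, at 1.88, 1.53 and -0.54. Insm1, a neuroendocrine zinc finger gene, stood at 1.87, 2.25 and 0.31. In these 3 the Flag-labelled array was the low one. The chromatin architectural gene Hmga2 had levels of 2.47, 3.01 and 1.07, and its second probe gave a difference of -2.62 beside -1.94 for the brighter one. The insulin-like growth factor binding gene Igfbp3 differed by -2.19, with wildtype between the other arrays at 0.84, and the collagen triple helix gene Cthrc1 by -1.89.

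The 15 bright genes with the highest differences spanned 1.40 to 2.08. Cfp, the gene of complement properdin, stood at 0.56 in wildtype, -0.23 in Pcgf6KO and 1.85 on the Flag-labelled array. Notum, which encodes a deacylase that inactivates Wnt proteins, stood at 0.66, -0.31 and 1.62, and the annexin gene Anxa8 at 0.48, -0.004 and 1.88. In all 3 the Flag-labelled array was highest and Pcgf6KO lowest. The pepsinogen gene Pga5 went from -0.25 in Pcgf6KO to 1.55, with -1.25 in wildtype. Cox6b2, a testis form of a cytochrome c oxidase subunit, went from 0.33 to 1.99, and the glutathione peroxidase gene Gpx2 from 0.55 to 2.08. The integrin gene Itgb7 had 2.18 in wildtype, 1.13 in Pcgf6KO and 2.68, and the mitochondrial aspartate-glutamate carrier gene Slc25a12 had 2.09, 0.98 and 2.44. These last 2 stood nearly as high in wildtype. Lhx1, a homeobox gene of mesendoderm, differed by 1.41, as did the GABA receptor gene Gabra3, whose second probe gave -3.90, so that its mean over probes was -1.25.

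**Figure D3:**
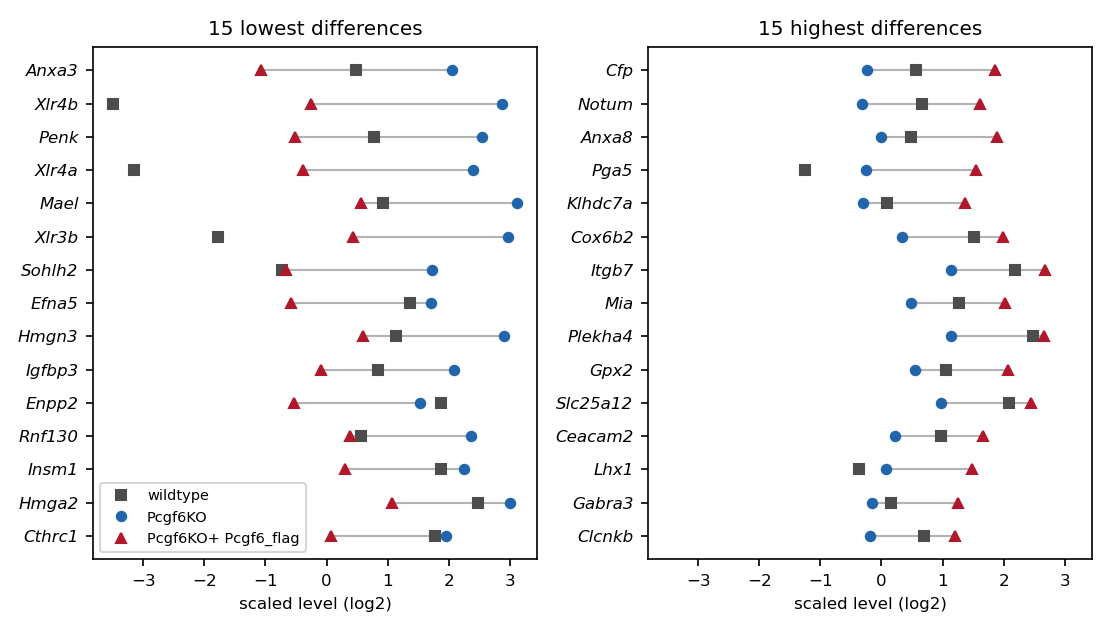
Scaled levels (log2, horizontal axis) of the 15 genes with the lowest and the 15 with the highest differences among bright genes, with wildtype as squares, Pcgf6KO as circles and the Flag-labelled array as triangles. Lines join Pcgf6KO to the Flag-labelled array, and they are longer on the left (Anxa3, -3.13) than on the right (Cfp, 2.08).

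Genes below background on 1 of the arrays give larger bounds on the lower side. Zscan4f, Zscan4c and Zscan4a, genes of the zinc finger family that marks a 2-cell-like state of stem cells, were measured in Pcgf6KO at -0.62, -1.54 and -1.63 and were not well above background on the Flag-labelled array. The bounds were 29.1-fold, 15.4-fold and 14.5-fold lower in the same order. Wildtype lay in between, at -3.54, -4.27 and -4.19. Zar1, a maternal-effect gene, was at least 28.7-fold lower, Rbm46, which encodes an RNA-binding protein of germ cells, at least 22.4-fold, and the fatty acid binding gene Fabp7 at least 13.7-fold. On the higher side the bounds were 23.1-fold for the protease inhibitor gene Serpinb6e, 11.7-fold for the testis serine protease gene Prss21 and 8.78-fold for the lectin receptor gene Klrb1b. Of these 3 higher genes, Prss21 and Klrb1b were not well above background in wildtype either.

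Gene lists were used to describe groups of related genes. They were chosen with earlier results of these data known, so their counts and medians are descriptions and no independent support. Counts and medians are over members measured on both arrays. Whether a member is measured on 1 array alone depends on its level and on the faintest signal that each array measured. Its bound is thus partly set by that filter and can also be small. These counts therefore describe the members seen and not the whole list. The germline lists held 242 genes in 9 groups, of which 217 were on the array. On both arrays 146 were measured, 30 on 1 array and 41 on neither. Of the 146, 51 were at least 2-fold lower, 16 higher and 79 under 2-fold, beside 8.34% lower and 5.5% higher over all genes. Those shares over all genes are the background for the counts of each list below. They vary with level, since 24.9% of genes in decile 2 were lower against 1.21% of bright genes. No share at the level of the list members was computed. The median of the 146 was -0.55 beside 0.03. Of the 30 measured on 1 array, bounds put 13 lower and 3 higher, beside 25.7% and 13.4% of all such genes. The groups differed from one another: 5 of the 9 had no member measured on both arrays that was at least 2-fold higher, whereas the recombination, sperm and oocyte groups had 5, 4 and 6. Some medians rest on dim members. Among bright members only, the median was -1.05 over 4 Rhox genes, -0.31 over 4 cancer-testis genes and -0.14 over 9 germ cell regulators.

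The Xlr family, X-linked genes that are active in lymphocytes and in spermatogenesis, was lower throughout. Each of the 8 members seen on both arrays was at least 2-fold lower, with differences from -3.53 to -1.57 and a median of -2.44, and Xlr5a was at least 3.55-fold lower. Xlr4b stood at -3.49 in wildtype, 2.87 in Pcgf6KO and -0.25 on the Flag-labelled array. Xlr3a stood at -3.24, 1.85 and -1.68, and Xlr3b at -1.78, 2.97 and 0.44. In these 3 genes the Flag-labelled array lay between, below Pcgf6KO and above wildtype. Xlr4a differed by -2.77, and by -3.43 on its second probe. Xlr5b and Xlr5c, not well above background in wildtype, went from -0.67 and -0.17 in Pcgf6KO to -2.67 and -2.20. The members are near-identical in sequence, so their probes may read one another's transcripts and are not independent.

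Rhox genes, a cluster of reproductive homeobox genes on the X chromosome, were lower in 9 of the 13 members measured on both arrays and higher in 0 (median -1.80). Rhox13 stood at -2.30 in wildtype, 1.6 in Pcgf6KO and -1.25 on the Flag-labelled array. Rhox10 stood at -3.56, -0.17 and -2.95, and Rhox2c at -4.06, -1.08 and -3.96. The last of these was thus back at its wildtype level, and Rhox13 about 1 log2 unit above it. Rhox1 with -0.29 and Rhox2h with -0.56 stayed under 2-fold. Copies of Rhox2 and Rhox4 are also near-identical.

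Cancer-testis genes, which are normally restricted to the testis, were lower in 7 of 14 and higher in 0. The median was -1.19, and it was -0.03 over all 30 genes on the array without the filter on dim probes. Those 30 include 12 genes measured on neither array, whose values are array background. Of those measured on 1 array 2 were lower and 1, Magea6, was higher as a bound. Luzp4 stood at -4.37 in wildtype, 1.98 in Pcgf6KO and -2.37 on the Flag-labelled array, a difference of -4.35. Ct55 stood at -4.58, 0.28 and -3.81, and Mageb4 at -5.31, -0.20 and -3.55. In all 3 Pcgf6KO was the high array and wildtype the lowest. The brighter probe of Fmr1nb had 0.01 in wildtype, 2.88 in Pcgf6KO and 2.74 on the Flag-labelled array, but its second probe differed by -1.86, so the 2 probes disagree. Mageb16 was alike on all 3 arrays, with 2.54, 2.60 and 2.41.

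Genes of the piRNA pathway, which silences transposons in germ cells through PIWI proteins and small RNAs, were lower in 11 of 17 members and higher in 0, with a median of -1.14 and 3 more lower as bounds. Tdrkh, a Tudor-domain scaffold of piRNA trimming, stood at -3.33 in wildtype, 0.54 in Pcgf6KO and -3.28 on the Flag-labelled array. Henmt1, the methyltransferase of piRNA ends, stood at -3.95, -1.75 and -4.90, and the helicase gene Mov10l1 at -3.85, -1.56 and -4.00. Each of these 3 lay near or below its wildtype level on the Flag-labelled array. Mael, which acts in piRNA biogenesis and is bright, went from 3.12 to 0.57 with 0.93 in wildtype, and the chaperone gene Fkbp6 from -0.45 to -3.09 with -3.12 in wildtype. Tdrd1, a partner of PIWI proteins, was at least 4.03-fold lower. Tdrd5, with -0.67, -0.17 and -0.27, hardly differed between the arrays. The line plots of both families show the levels on each array.

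**Figure D4:**
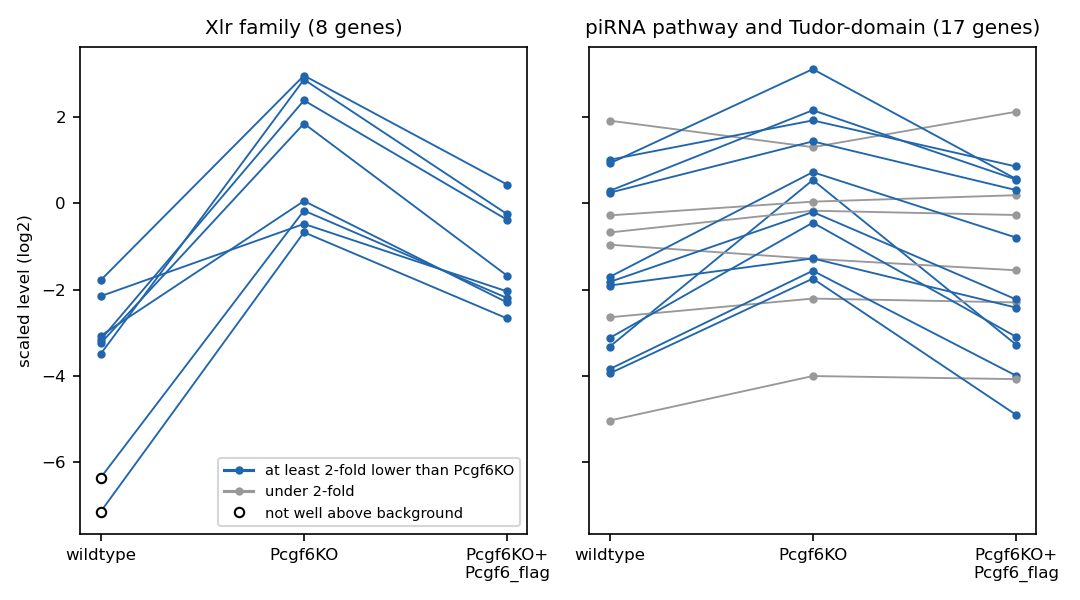
Scaled levels (log2, vertical axis) on the 3 arrays of the 8 Xlr genes and 17 piRNA pathway genes measured on both arrays compared, 1 line per gene, with genes at least 2-fold lower on the Flag-labelled array than in Pcgf6KO in blue. All 8 Xlr lines and 11 of the 17 piRNA lines are blue, and open circles mark 2 Xlr genes not well above background in wildtype.

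Most structural genes of meiotic chromosomes differed by less than 2-fold. Of 14 synaptonemal complex and cohesin genes 2 were lower, 1 higher and 11 under 2-fold (median -0.61). Syce1, a central element protein, went from 2.83 in Pcgf6KO to 1.22, with 1.26 in wildtype, and the HORMA-domain gene Hormad2 from -1.10 to -2.64, with -3.98 in wildtype. The axial element gene Sycp3 differed by -0.43 and the transverse filament gene Sycp1 by -0.98. Stag3, a meiotic cohesin subunit, was higher by 1.37, with -0.85 in wildtype, -1.39 in Pcgf6KO and -0.02 on the Flag-labelled array.

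Recombination genes went both ways, with 5 of 20 higher, 3 lower and a median of 0.16 that turned to -0.25 without the filter on dim probes. Mei1 stood at -3.79 in wildtype, -0.67 in Pcgf6KO and -3.85 on the Flag-labelled array. Iho1, which takes part in forming the DNA breaks of meiosis, stood at -2.92, -0.26 and -3.07, and Tex11, an X-linked crossover gene, at -2.67, 0.68 and -1.59. The opposite order was seen in Hsf2bp, with -2.85, -5.26 and -2.59, and in the mismatch repair homologue Msh4, with -4.15, -4.35 and -2.02. Hsf2bp was dim in Pcgf6KO and alike on the other 2 arrays, whereas Msh4 was high on the Flag-labelled array alone. Dmc1, the meiotic recombinase, differed by -0.45.

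Regulators of germ cell transcription and RNA were lower in 10 of 26 members and higher in 0 (median -0.67). Figla, an oocyte transcription factor gene, went from -1.56 in Pcgf6KO to -4.98, with -3.80 in wildtype. Brdt, which encodes the testis bromodomain protein, went from -2.02 to -4.84 with -4.95 in wildtype, and the RNA-binding protein gene Boll from -1.66 to -4.11 with -4.27. Brdt and Boll were thus at wildtype levels again. The cytoplasmic polyadenylation gene Cpeb1 went from 0.91 to -1.84, with -0.74 in wildtype. Dazl differed by -0.30, Dppa3 by 0.25 and Prdm1 by 0.44.

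Late germ cell products were higher in part. Of 20 sperm and testis effector genes 4 were higher and 0 lower, with a median of -0.04 that turned positive without the filter on dim probes, with another background correction and without scaling. Without that filter, 13 genes measured on neither array are counted too. Among effector genes measured on 1 array, 1 was lower as a bound, Spaca1 by at least 4.32-fold, and 1 was higher, Prss21. The protamine gene Prm2 went from -5.58 to -3.60, with -5.32 in wildtype, and the cilia and flagella gene Tekt4 from -1.28 to 0.66, with -1.29 in wildtype. Both were highest on the Flag-labelled array. Of 14 oocyte genes 6 were higher and 1 lower (median 0.51), against 3 lower and 1 higher among those with a bound. The zona pellucida gene Zp1 went from -5.60 to -3.49 and was not well above background in wildtype, whereas Rfpl4 was at least 2.63-fold lower.

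Genes of the 2-cell stage were known on this pair mainly through bounds. Only 7 of 19 were measured on both arrays, with 1 lower, 0 higher and a median of 0.23 that turned to -1.65 at its lowest. Of the 9 measured on 1 array 7 were lower as a bound, beside 25.7% of all genes measured on 1 array. Besides the Zscan4 genes, Tcstv3 was at least 4.05-fold and Tcstv1 at least 2.50-fold lower, and neither was well above background in wildtype. The bright members Zfp352 and Usp17la differed by 0.41 and 0.37.

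Promoters of these genes were searched for CACGTG, the E-box letters that MGA and MAX bind, and for TTCCCGCC, letters of an E2F site, on both strands of 300 bases around each RefSeq start in GRCm38.p6 (250 upstream and 50 downstream). A promoter was found for 12521 of the 15759 genes measured on at least 1 array. CACGTG occurred in 8.09% of all 27025 genes with a promoter, in 11.4% of 11354 genes measured on both arrays, in 11.3% of 904 lower genes and in 8.57% of 607 higher genes. Over all genes, the lower ones therefore held it as often as those measured. In the 9 germline lists it occurred in 40 of 196 (20.4%). Among germline genes lower by 2-fold or as a bound it was 18 of 56 (32.1%). For those measured on both arrays it was 12 of 65 (18.5%) under 2-fold and 2 of 12 (16.7%) at least 2-fold higher.

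The groups held the E-box unequally. It was found in 10 of 20 piRNA pathway promoters and in 8 of 17 of the synaptonemal group, in which 2 genes were at least 2-fold lower, and in 0 of 11 Xlr promoters, all of whose genes measured on both arrays were lower. TTCCCGCC occurred in 4.63% of measured genes and 3.76% of lower genes. Within the germline lists its order was the other way from CACGTG. It occurred in 5 of 56 (8.93%) that were lower by 2-fold or as a bound. Among those measured on both arrays it occurred in 9 of 65 (13.8%) under 2-fold and 2 of 12 (16.7%) higher. The presence of these letters describes the sequence only. The following 5 windows, chosen after their values were seen, come from germline genes at least 2-fold lower on the Flag-labelled array. They are shown 5′ to 3′ on the gene's strand with the E-box in capitals, because they let the surroundings of the word be compared, and all lie upstream of the start and are taken from RefSeq.

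Ct55 (chrX:53724738-53724823, plus strand): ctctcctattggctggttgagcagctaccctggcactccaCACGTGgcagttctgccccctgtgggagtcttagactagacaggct

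Brdt (chr5:107331076-107331161, plus strand): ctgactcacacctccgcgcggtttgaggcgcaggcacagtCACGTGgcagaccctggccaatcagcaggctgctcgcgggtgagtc

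Mael (chr1:166238922-166238994, minus strand): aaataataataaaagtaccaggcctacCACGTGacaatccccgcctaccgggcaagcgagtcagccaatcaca

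Stk31 (chr6:49395444-49395529, plus strand): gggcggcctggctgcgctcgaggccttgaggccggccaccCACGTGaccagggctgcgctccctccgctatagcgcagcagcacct

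Slc25a31 (chr3:40708738-40708823, plus strand): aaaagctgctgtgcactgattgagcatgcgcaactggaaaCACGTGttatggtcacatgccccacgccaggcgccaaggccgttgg

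The word also stands upstream of germline genes that differed by less than 2-fold, of which 3 are shown for contrast.

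Sycp1 (chr3:102936149-102936234, minus strand): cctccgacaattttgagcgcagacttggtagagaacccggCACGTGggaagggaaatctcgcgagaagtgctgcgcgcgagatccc

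Taf7l (chrX:134476494-134476579, minus strand): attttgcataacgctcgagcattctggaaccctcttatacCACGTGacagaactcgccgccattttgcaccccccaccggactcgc

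Syce2 (chr8:84872130-84872215, plus strand): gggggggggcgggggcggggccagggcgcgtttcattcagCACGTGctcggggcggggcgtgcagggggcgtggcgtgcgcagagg

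Stk31, a Tudor-domain kinase-like gene, differed by -2.03 and the ADP/ATP carrier gene Slc25a31 by -2.03 as well. The testis TAF7 homologue Taf7l differed by -0.67 and the central element gene Syce2 by -0.18. Other germline genes with an upstream E-box were higher: Stag3 differed by 1.37, and the maternal-effect gene Tle6, named after its value was seen, by 1.33. Among genes of the germline lists measured on both arrays, the same 6 letters thus stood beside differences from -4.09 to 1.37.

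Genes of early lineages outside the germ line were lower in part. Of 19 trophoblast genes 8 (42.1%) were lower and 0 higher, beside 8.34% and 5.5% over all genes. Their median was -0.92. Cdx2, a transcription factor gene of trophectoderm, stood at -2.33 in wildtype, -1.82 in Pcgf6KO and -4.64 on the Flag-labelled array, below both others. Hand1 stood at -3.17, -1.70 and -3.18 and Gata3 at 0.65, 1.14 and 0.10, whereas Eomes was at 0.03 on both arrays compared. As bounds, Plac1 was at least 10-fold lower and the spongiotrophoblast gene Tpbpa at least 4.52-fold higher.

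Of 16 primitive and visceral endoderm genes 7 (43.8%) were lower and 0 higher, beside 8.34% and 5.5% over all genes. The median was -0.65, and -0.15 over 4 bright members. The adaptor gene Dab2 stood at -2.67, -1.41 and -4.88, the cubilin partner gene Amn at -2.08, -0.95 and -3.23, and Gata6 at -2.40, -2.56 and -3.71. Afp, the alpha-fetoprotein gene, was at least 5.58-fold lower. Gata4 differed by 0.03. In Dab2 and Gata6 the Flag-labelled array was again below wildtype as well.

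Mesendoderm and neural genes were split. Among 16 mesendoderm genes 3 (18.8%) were lower and 3 (18.8%) higher, beside 8.34% and 5.5% over all genes. The Wnt ligand gene Wnt3 stood at -2.57, -0.55 and -3.72 and the mesoderm factor gene T at -1.97, -0.90 and -2.96, while Lhx1 was higher. Of 21 neural ectoderm genes 6 (28.6%) were higher and 2 (9.52%) lower (median 0.25). The homeobox gene Hesx1 stood at -1.53, -1.44 and 0.67 and Six3 at -2.91, -3.19 and -1.65, both high on the Flag-labelled array alone. Slitrk5, a synaptic adhesion gene, went the other way with -0.24, 0.74 and -2.73. For Sox1 the brighter probe gave 2.11 and the other -0.68, and for the receptor gene Kdr they gave 1.41 and -0.53, so no direction can be given for either.

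Hox genes were mostly dim, with 12 of 39 measured on both arrays. Of these, 4 (33.3%) were lower and 2 (16.7%) higher, beside 8.34% and 5.5% over all genes. Their median of 0.14 changed sign under quantile normalization and without the filter. Another 5 were lower as bounds, beside 25.7% of all genes measured on 1 array. Hoxd13 stood at -1.10, -1.87 and -4.24. Imprinted genes were lower in 8 of 33 and higher in 0 (median -0.34, and 0.01 over 16 bright members). Ndn, the necdin gene, stood at -0.43, 0.85 and -1.31, and the growth factor gene Igf2 at -2.65, -2.88 and -5.01, whereas Peg3 differed by -0.05 and Igf2r by -0.42.

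**Figure D5:**
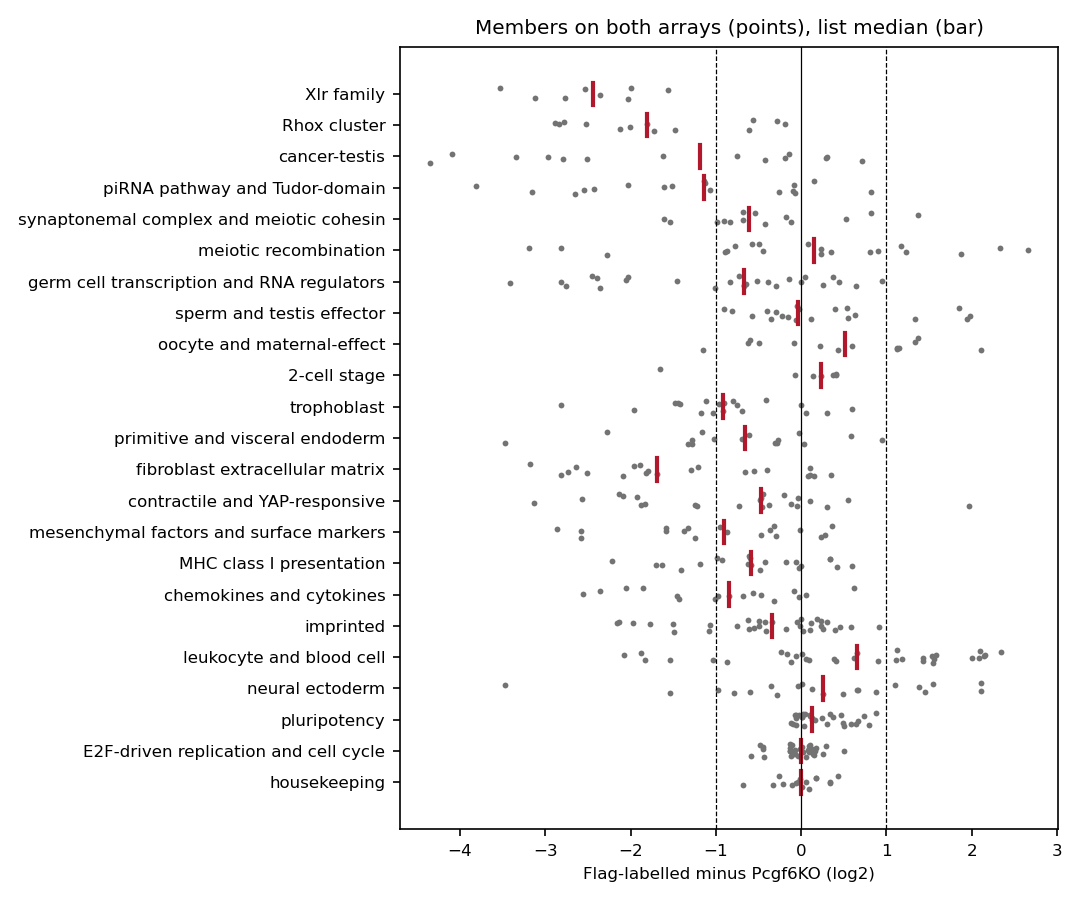
Differences between the Flag-labelled array and Pcgf6KO (log2, horizontal axis) for members of 23 gene lists measured on both arrays, 1 point per gene, with the list median as a red bar and dashed lines at 2-fold. Xlr (median -2.44), Rhox (-1.80) and fibroblast matrix genes (-1.69) lie furthest left, leukocyte genes (0.65) furthest right, and pluripotency, cell cycle and housekeeping points stay inside the dashed lines.

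Genes of fibroblasts and mesenchyme were lower on the Flag-labelled array in many cases. The 3 lists had 86 members with probes, of which 62 were measured on both arrays, 11 on 1 and 13 on neither. Of the 62, 30 were lower, 1 higher and 31 under 2-fold, beside 8.34% lower and 5.5% higher over all genes, and the median was -0.91. As for the germline lists, no share at the level of these members was computed. Bounds put 6 of the 11 lower, beside 25.7% of all genes measured on 1 array. In the matrix list 13 of 21 were lower and 0 higher, with a median of -1.69 that was 0.08 among bright genes only. The collagen gene Col1a1 stood at 2.51 in wildtype, 1.58 in Pcgf6KO and -0.93 on the Flag-labelled array. Col1a2 stood at 2.60, 0.60 and -2.13, Col3a1 at 0.43, -2.04 and -4.86, and the decorin gene Dcn at 0.69, 0.49 and -2.14. In each of these 4 the order was wildtype, then Pcgf6KO, then the Flag-labelled array. Tgfbi, an adhesion protein of the matrix, was highest in Pcgf6KO, with -0.41, 0.55 and -2.63.

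Contractile and YAP-responsive genes were lower in 9 of 23 and higher in 1 (median -0.47). The smooth muscle actin gene Acta2 stood at 3.64, 1.01 and -0.87, the calcium-binding gene S100a4 at 2.11, -0.41 and -2.49, and Ankrd1 at 1.04, -1.68 and -3.81. Tm4sf1 was at least 5.13-fold lower than in Pcgf6KO. These 4 had the same order of arrays as the collagens, and Tagln, with 4.0, 3.82 and 3.09, kept most of its level. Mesenchymal factor and surface genes were lower in 8 of 18 and higher in 0, with a median of -0.91 that was -0.016 over the 3 bright members. Twist2 stood at -0.77, -1.78 and -4.64 and Ly6a, the gene of the surface antigen Sca-1, at -1.91, -0.28 and -2.87, whereas Snai1 differed by -0.47.

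The marker list for feeder fibroblasts shares genes with these groups, among them Col1a1, Col1a2, Col3a1, Dcn, Acta2 and Twist2. Its sums are therefore no independent check of them. In multiples of the 75th percentile, wildtype had a summed signal of 34.4, Pcgf6KO of 10.9 and the Flag-labelled array of 3.51. Of its 12 markers 11, 9 and 7 were measured on these arrays. Lum was below background on all of them, and Postn and Prrx1 were above it in wildtype alone. Fewer fibroblasts in a culture and less RNA per fibroblast cannot be told apart in bulk RNA, and the part of feeder RNA in the differences above was not tested.

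Immune signalling genes were lower in part. Of 26 interferon-stimulated and RNA-sensing genes 7 (26.9%) were lower and 0 higher, beside 8.34% and 5.5% over all genes, though the median was 0.16. The chemokine gene Cxcl10 stood at -1.40, 0.86 and -1.66, the RNA sensor gene Ifih1 at -4.34, -2.55 and -4.24 and Isg15 at -1.84, -0.64 and -2.01, each highest in Pcgf6KO. Ifit1, with -3.78, -3.55 and -3.70, hardly differed. Of 21 genes of MHC class I presentation 5 (23.8%) were lower and 0 higher (median -0.59). The immunoproteasome gene Psmb8 stood at -0.37, 1.27 and -0.36 and the peptide transporter gene Tap2 at -1.67, -0.14 and -1.55, both at wildtype level on the Flag-labelled array. The class I genes H2-K1 and H2-D1 differed by -0.60 and -0.49.

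Of 17 chemokine and cytokine genes 7 (41.2%) were lower and 0 higher (median -0.85), beside 8.34% and 5.5% over all genes. The alarmin gene Il33 stood at -1.94, -0.93 and -3.49. The macrophage growth factor gene Csf1 stood at 1.88, -0.56 and -2.91 and so had the order of the collagens. Among TGF-beta family genes 5 of 23 (21.7%) were lower and 2 (8.7%) higher, with a median of 0.04 that changed sign with the scaling. Tgfb2 differed by -2.44 on both of its probes, Inhba, a subunit of activin A, was at least 9.58-fold lower, and Gdf15 was higher by 1.49. Neuropeptide genes other than Penk were also among those lower: Tac1, the substance P precursor gene, stood at -2.98, -1.14 and -4.98, and the bombesin-like peptide gene Grp and the neurotensin gene Nts were at least 11-fold and 9.75-fold lower.

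Genes of blood cells had the highest median among lists with more than 2 genes measured on both arrays, 0.65. This list too was chosen with earlier results of these data known, and Pcgf6KO is one side of each difference. The rank may therefore be set in part by that choice. Of 33 blood cell genes 15 (45.5%) were at least 2-fold higher and 5 (15.2%) lower, beside 5.5% and 8.34% over all genes. Septin1 stood at 0.91 in wildtype, -1.76 in Pcgf6KO and 0.59 on the Flag-labelled array, and its second probe gave a difference of 1.21 beside 2.35. The phosphatase gene Inpp5d stood at -0.30, -1.39 and 0.77, and Ptprcap, which encodes a partner of CD45, at -0.50, -1.57 and 0.43. In these 3 Pcgf6KO was the low array. The motor gene Myo1g was higher by 2.15. Ptprc, which encodes CD45 itself, was dim, with -6.23 in Pcgf6KO and -4.66, and not well above background in wildtype. Of 10 leukocyte markers 6 were measured on each array, but not the same 6. Lyz2 was measured in wildtype alone, and Ptprc only on the 2 arrays compared. Coro1a went the other way, with a difference of -0.23. Cd53, Tyrobp and Spi1 were below background on all 3, and the summed signal was 3.20 in Pcgf6KO and 5.85 on the Flag-labelled array. Whether leukocyte RNA has a part in this was not tested.

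Immediate early genes were higher in 4 of 17 (23.5%) and lower in 1 (5.88%), beside 5.5% and 8.34% over all genes. Fosb stood at -1.61, -2.74 and -0.90, Egr1 at -0.76, -0.80 and 0.42 and Fos at -1.66, -1.84 and -0.81, each highest on the Flag-labelled array. Jun, Junb and Jund differed by -0.07, 0.12 and 0.35. The placental lactogen gene Prl3b1, one of 2 prolactin family genes measured on both arrays, had a difference of 4.27, from -5.15 in Pcgf6KO to -0.88, with -5.23 in wildtype.

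Several lists that describe the state of stem cells stayed within 2-fold among members measured on both arrays. All 31 pluripotency genes did, with a median of 0.13. All of them were bright, and of all bright genes 1.21% were lower and 0.91% higher, so 0 of 31 is near the background. Pou5f1 stood at 4.62, 4.42 and 4.37, Nanog at 4.96, 4.85 and 5.33 and Sox2 at 3.03, 2.96 and 2.96. No member of the lists for replication and cell cycle (32 genes), p53 targets (21), PRC2 (12), other PRC1 subunits (17) or housekeeping (16) that was measured on both arrays passed 2-fold either on its brightest probe, although a second probe of Ezh1 gave 1.18 and one of Cdkn1a 1.99. In the order of these lists, 27, 16, 11, 9 and 15 of those members were bright, and for them 0 is again near the background. The p53 target Fas, not well above background on the Flag-labelled array, was at least 3.37-fold lower as a bound. Among PRC2 genes Ezh2 differed by 0.21 and Suz12 by 0.09, and the replication licensing gene Mcm2 by -0.04. Of 19 DNA methylation and H3K9 silencing genes only Tet2, which oxidises methylcytosine, passed, with 1.94, 1.14 and 2.33, and 0.95 as the difference on its second probe. Dnmt1 and Dnmt3b differed by 0.14 and -0.15.

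In primed epiblast genes 2 of 21 (9.52%) were lower and 1 (4.76%) higher (median -0.19). This is near the 8.34% and 5.5% over all genes. The neural and epiblast factor gene Sox3 stood at 1.03, 0.05 and -1.54 and the Wnt ligand gene Wnt8a at -1.96, -1.15 and -3.14, while Fgf5, Otx2 and Pou3f1 differed by -0.72, 0.28 and -0.64. Of 29 glycolysis and hypoxia genes 1 was higher and 1 lower, and of 21 stress response genes 1 was higher, Chac1 with 1.12. Of 9 skeletal muscle genes 3 were lower and 0 higher. The perinatal myosin gene Myh8 stood at 0.54, 1.76 and 0.04, and Myod1 was alike on all arrays with 1.40, 1.40 and 1.58.

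The error that these files can give is technical. For 264 probes with repeated spots, the difference between the arrays had a pooled SD of 0.11 over spots of one probe, which leaves out any spread between cultures, RNA preparations or slides. Second probes are a further check: of 189 lower genes with at least 2 probes measured on both arrays, 170 (89.9%) were lower on every probe and 128 at least 2-fold lower on every probe. Of 116 higher genes, 94 (81.0%) were higher on every probe and 41 passed 2-fold on every probe.

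Probes outside curated mRNAs showed the opposite balance. Among 18490 measured probes for curated RefSeq mRNAs, 4.96% were at least 2-fold higher and 7.93% lower, whereas among 7969 probes designed on genomic intervals 17.6% were higher and 3.29% lower. Curated noncoding RNAs, with 11.6% and 3.4%, and predicted mRNAs, with 15.1% and 2.56%, had that balance too. Probes were sorted into bands of level set by the deciles of genes. Of the interval probes 2872 lay in the dimmest band, decile 1, but the contrast was also present within deciles. In decile 1, 24.5% of the interval probes and 17.9% of the mRNA probes were higher, and in decile 5 these shares were 12.0% and 3.55%.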

How the data were processed

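Total RNA of 3 cultures was measured on 1 array each, and the groups come from the genotype labels. The deposited scanner files hold spot intensity on a linear scale, written by Feature Extraction 11.5.1.1 per the file headers, whereas the submitters' processing notes name 10.7. The deposited processed intensity is background-subtracted. The deposited value table held the same intensity, unscaled, for all 55249 probes with a single spot within a relative tolerance of 1e-06.

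From these, control spots and the 141, 158 and 192 outlier spots of wildtype, Pcgf6KO and the Flag-labelled array were left out, and spots of a probe were averaged. Of 59305 spots per array that were not controls, 0 were saturated. Each array was scaled to its 75th percentile. Accessions matched to RefSeq genes of GRCm38.p6 named 26746 of 55647 probes and gave 20274 genes. The brightest probe stood for a gene, among probes well above background on at least 1 of the 2 arrays. The lowest such signals were 53.4 on Pcgf6KO and 103 on the Flag-labelled array, so bounds reach further down on Pcgf6KO.

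A fixed 2-fold rule was used, with no statistical test. Precision is limited by the number of arrays. The counting code was tested on simulated data with known changes. Members, lists and motifs were chosen with earlier results of these data known. Named genes are the PRC1.6 subunits, the 15 lowest and 15 highest differences among genes at or above the median level, the 8 largest bounds each way, and from each list up to 5 members past 2-fold and 3 others. Stk31, Slc25a31, Taf7l, Syce2 and Tle6 were named after their values were seen. Predicted genes were counted and not named.

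Alternatives were normexp in limma 3.58.1 (offset 50, on the median spot signal), quantile normalization, other scalings and filters, the mean over probes, outliers kept, the deposited table, and 1.5-fold and 3-fold thresholds. Unscaled deposited values were added once the data had been seen. A slide block could not be run, because slide 2 holds 1 array. Python 3.11.15, numpy 2.4.6, pandas 2.3.3, matplotlib 3.10.9 and R 4.3.3 were used.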

Additional observations from a re-analysis of the deposited data

Results flagged for a closer look

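A control probe outside the comparison, ERCC-00116_142, which reads a synthetic spike-in RNA, had a median signal over spots of 411 on the Flag-labelled array, where all 28 of its spots were well above background. It had 31.8 on Pcgf6KO and 17.9 on wildtype, and was not well above background in most spots of either. It was looked at again because this signal lies in data that no comparison used. Among 96 ERCC probes, 1 had this pattern and 2 were above background on Pcgf6KO and not on the Flag-labelled array.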

How the results depend on the processing

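Lower genes numbered 976 to 1348 and higher genes 574 to 945 over normexp, quantile normalization, other scalings, the mean over probes, outliers kept, the deposited table and its unscaled values, against 1188 and 783. The share lower among called genes was 60.3%, 67.3% with median scaling and 52.4% unscaled, where the median of all genes was 0.13. Filters and thresholds moved the counts more: lower and higher genes were 2195 and 2009 without the filter on dim probes, 86 and 65 among bright genes only, 2123 and 1820 at 1.5-fold, and 568 and 238 at 3-fold. The count without the filter takes in genes below background on both arrays, and the part of array background in it was not tested. Medians of 13 of 40 lists changed sign in at least 1 alternative other than bright genes only. Under bright genes only, the fibroblast matrix median turned from -1.69 to 0.078. Gabra3 turned from 1.41 to -1.25 as a mean over probes. Of 159 named genes past 2-fold, 18 fell under it in at least 1 alternative, among them Gata3, Gata6, Sox1, Kdr and Fos. No paired analysis was possible because each group has 1 array. With 1 array per group, no difference here has an error over cultures, and the array, slide and RNA preparation cannot be told apart from the group.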
